A study of Mus musculus with 9 samples.

Results

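Expression of 10 integrin subunit genes was measured by RNA-Seq of whole osteosarcomas from 2 genetically engineered mouse models (GEMMs). The genes are Itga1, Itga2, Itga4, Itga5, Itga8, Itga10, Itga11, Itgav, Itgb1 and Itgb5, which encode receptors for collagens, fibronectin and related matrix proteins. They were selected by gene symbol from the 55367 genes of the count table, and all 10 had enough reads to be tested. Tumors of the p53 model (n = 4) carried Col2.3-Cre and a floxed Trp53 allele (fl/+), and tumors of the Myc-knockin model (n = 5) carried in addition a Lox-Stop-Lox c-Myc allele with the T58A change. Both groups therefore share the Cre driver, which is expressed under an osteoblast-specific promoter, and the floxed Trp53 allele. The tumors arose spontaneously and were resected, and the labels give no age for any animal. Per the paper, the median time to sacrifice was shorter in the Myc-knockin than in the p53 model. Age may therefore differ between the groups, and its part was not tested. The comparison asks which subunits differ in transcript level between the genotypes.

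Integrins are transmembrane receptors built from one alpha and one beta chain, and they tie the extracellular matrix to the actin cytoskeleton. The alpha chains of Itga1, Itga2, Itga10 and Itga11 bind collagens and pair with the beta chain of Itgb1. The products of Itga5, Itga8 and Itgav recognize the RGD motif of fibronectin and other matrix proteins, and that of Itga4 binds fibronectin and the endothelial ligand VCAM1. The alpha chain of Itgav also pairs with the beta chains of Itgb3, Itgb5, Itgb6 and Itgb8, and in bone its complex with the Itgb3 product is known as the vitronectin receptor of osteoclasts.

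Among these 10 genes, Itgav was 5.67-fold lower in the Myc-knockin tumors and was the only one that passed the test. Calls required an adjusted p under 0.05 plus a change of over 1.5-fold, which 5.27% of the 15365 genes tested reached (3.00% by being lower in Myc-knockin tumors and 2.26% by being higher). Of the integrin genes, 1 was called lower and 0 higher in edgeR's quasi-likelihood test. An unadjusted p under 0.05 was reached by 5 of the 10, as by 26.8% of all genes tested. Log2 fold changes were below 0 for 9 of the 10, against 43.8% of all genes, and their median was -0.69, where the median of all genes was 0.14. DESeq2 called 3 of the 10 lower and limma-voom 2, where they called 7.24% and 6.51% of all genes lower.

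The libraries set limits on these values. Total counts ranged from 2716322 to 17073285 per tumor, and the floor of 3 counts corresponded to 0.114 to 2.39 CPM, edgeR's counts relative to the TMM-normalized library size. Satellite-repeat genes, 12 in number, took 23.2% to 81.0% of the counts of M408, F187, M351 and M9 and at most 0.0242% elsewhere. The background estimated from chemosensory receptor genes was 24.2% of the counts outside satellite genes in M9 and 16.8% in M351. M624 and M664 stood apart by the non-polyadenylated RNA Rn7sk, at 5.33 and 9.32 CPM where every other library had at least 8860 CPM, and both are Myc knockin. The engineered gene Myc ranged from 43.5 to 67.1 CPM in the p53-driven tumors and from 144 to 1045 CPM in the Myc-knockin tumors (log2 fold change 3.41, adjusted p = 0.0217 in the same edgeR test). Trp53, of which both models carry a floxed allele, averaged 10.04 ± 2.35 CPM (SD, n = 4) and 14.7 ± 14.03 CPM (SD, n = 5). Osteoblast markers summed to 2084 to 2725 CPM in the p53-driven tumors and to 189 to 2217 CPM in the Myc-knockin tumors, where M624 was the lowest, and 1 of the 10 was called, lower. In whole tumors, fewer cells of a type and less RNA per cell cannot be told apart.

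Promoter sequences are shown for Itgav, which differed most, and for Itga5, the other main RGD-binding alpha subunit gene, which overlapped between the groups. They are RefSeq windows of build GRCm38.p6, from 250 bases before to 50 bases after the annotated start, for the plus strand at chr2:83724147-83724446 (Itgav) and the minus strand at chr15:103366742-103367041 (Itga5). Capitals mark the GC box GGGCGG on either strand.
Itgav: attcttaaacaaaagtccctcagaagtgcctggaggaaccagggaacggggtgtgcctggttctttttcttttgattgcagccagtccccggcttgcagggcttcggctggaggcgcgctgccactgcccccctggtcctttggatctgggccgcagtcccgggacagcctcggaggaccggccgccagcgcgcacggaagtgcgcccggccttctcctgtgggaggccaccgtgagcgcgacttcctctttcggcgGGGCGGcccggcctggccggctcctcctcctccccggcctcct
Itga5: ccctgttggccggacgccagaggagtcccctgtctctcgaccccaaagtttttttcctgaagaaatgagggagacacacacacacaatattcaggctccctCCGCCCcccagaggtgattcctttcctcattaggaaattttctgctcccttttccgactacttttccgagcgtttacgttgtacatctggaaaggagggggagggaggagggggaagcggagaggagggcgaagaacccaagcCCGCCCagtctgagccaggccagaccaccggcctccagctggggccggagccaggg
The Itgav window held 1 GC box and the Itga5 window 2. A GC box was found in 6 of the 10 integrin windows and in 35.7% of the 32851 windows of all genes. The E-box CACGTG, a palindrome that MYC is known to bind, was in 0 of the 10 windows and in 7.15% of all windows. A match describes these letters only, and no match says only that the letters are not in the window.

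**Figure D1:**
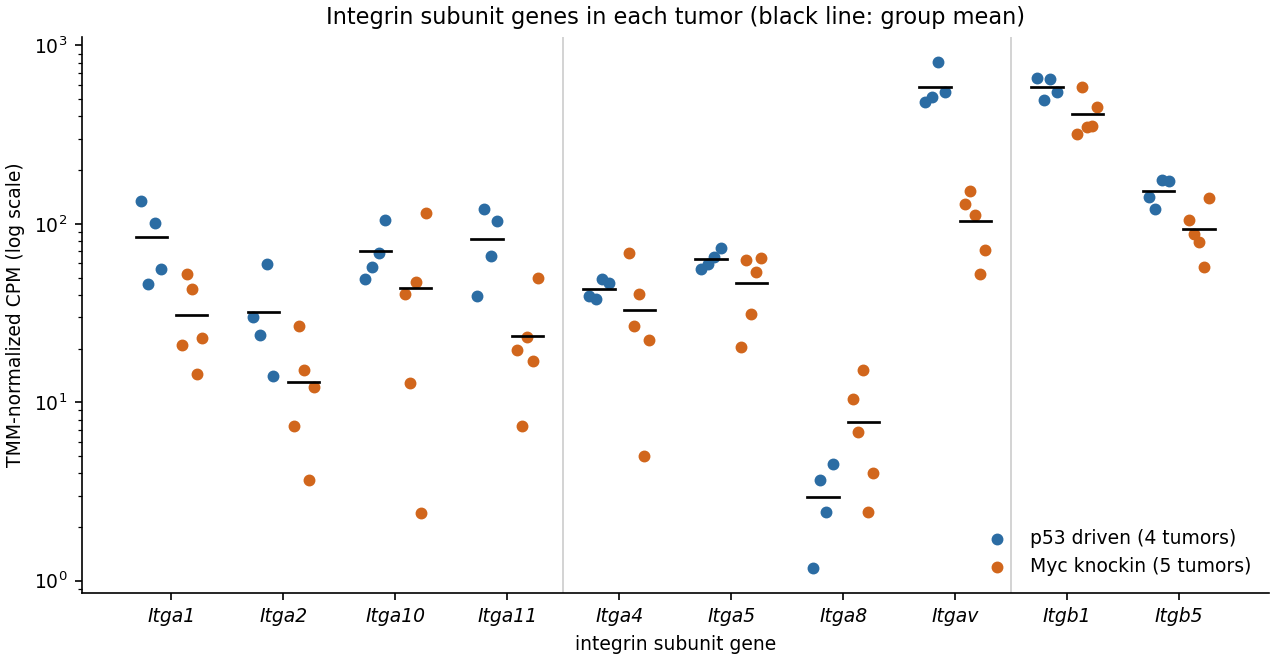
TMM-normalized CPM (log scale) of each integrin subunit gene in each tumor, with p53-driven tumors in blue (4 points), Myc-knockin tumors in orange (5 points) and a black line at each group mean. The gray lines separate collagen-binding alpha subunits, the other alpha subunits and beta subunits. The groups of Itgav are apart, at 484 to 807 against 52.5 to 153 CPM, while the points of the other 9 genes overlap between the groups.

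Itgav (ENSMUSG00000027087, chromosome 2 of mm10 from 83724397 to 83806916, plus strand) encodes the alpha chain shared by the vitronectin receptors. Its level was 484, 511, 807 and 548 CPM in F187, F325, F331 and F368, which are p53 driven. It was lower in M351, M408, M9, M624 and M664, the Myc-knockin tumors, at 129, 153, 112, 52.5 and 71.3 CPM. The highest Myc-knockin tumor stood well under the lowest p53-driven tumor, so the groups did not overlap. This was so, in the lower direction, for 1 of the 10 integrin genes and for 7.54% of all genes tested, and in the higher direction for 0 of the 10 and for 5.41% of all genes. The means were 587 ± 149 CPM (SD, n = 4) and 104 ± 41.4 CPM (SD, n = 5). edgeR gave a log2 fold change of -2.50 (standard error 0.38, unadjusted p = 3.48e-05, Benjamini-Hochberg adjusted p = 0.0175). Background reads were a small part of the Itgav counts in the libraries where that part was largest, with 13.4 expected of 141 counts in M9 and 12.1 of 210 in M351. Exons of Gm13684 on the opposite strand overlap 5.9% of the exon bases of Itgav, and Gm13684 had at most 32 counts in a tumor.

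The direction of Itgav was the same in all 21 other settings, with log2 fold changes from -3.31 to -1.94. It was -2.10 without M624 and M664 (adjusted p = 0.0294 in edgeR) and -3.31 without the 4 libraries with satellite reads (adjusted p = 0.00718). With library size alone as the scaling it was -2.74 and no longer passed (adjusted p = 0.0581), and in that setting 0.560% of all genes were called lower. The adjusted p was 0.0631 without F325, 0.064 without F331 and 0.066 without F368, with 0.0373%, 0.0375% and 0.0292% of all genes called lower in these 3 fits. The fold change moved little when these tumors were left out, at -2.57, -2.32 and -2.57.

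Itga5 and Itga8, whose products bind the same motif, were not called. Itga5 (ENSMUSG00000000555, chromosome 15 from 103344286 to 103366763, minus strand) encodes the alpha chain of the classical fibronectin receptor. It had 56.1, 59.2, 65.1 and 72.8 CPM in F187, F325, F331 and F368, and 20.3, 62.5, 31.1, 53.6 and 64.6 CPM in M351, M408, M9, M624 and M664. Of the Myc-knockin tumors, M408 and M664 lay within the p53-driven range, M624 was slightly under it, and M351 and M9 were the low ones. Its log2 fold change of -0.43 was within the spread between tumors (standard error 0.34, adjusted p = 0.44 in edgeR).

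The ratio of Itgav to Itga5 within a tumor does not depend on the scaling between libraries. On the log2 scale of counts per kilobase of exon it was 1.98, 1.99, 2.51 and 1.79 in the p53-driven tumors and 1.53, 0.17, 0.72, -1.15 and -0.98 in the Myc-knockin tumors, in the same order of tumors. The groups did not overlap, and in M624 and M664 the Itga5 level exceeded the Itgav level. The mean ratio was 2.07 ± 0.31 (SD, n = 4) and 0.06 ± 1.13 (SD, n = 5), a difference of -2.01 (exact permutation p = 0.0159, two-sided, which is the smallest that 4 tumors against 5 allow, and 0.0476 adjusted over the 3 ratios tested). The size rested in part on M624 and M664. Without them the difference was -1.26, with the exact permutation p at 0.0571, the smallest that 4 against 3 allow.

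Itga8 (ENSMUSG00000026768, chromosome 2 from 12106632 to 12301922, minus strand), which encodes a receptor chain for nephronectin and fibronectin, had the lowest level per kilobase of exon of the 10 genes and the only fold change above 0. It was measured at 1.18, 3.66, 2.42 and 4.50 CPM in the p53-driven tumors and 10.5, 6.78, 15.1, 2.44 and 4.02 CPM in the Myc-knockin tumors. M9, M351 and M408 were above every p53-driven tumor, and M624 and M664 lay within the p53-driven range. The log2 fold change of 1.31 (standard error 0.63, adjusted p = 0.206 in edgeR) rested on few reads. Of the 19 counts in M9 and the 17 in M351, 9.16 and 8.27 were expected as background, and without the 4 libraries with satellite reads the log2 fold change was -0.10. An antisense gene, E030013I19Rik, overlaps 5.05% of the exon bases, so without a stated strand setting the reads of the pair cannot be told apart there. E030013I19Rik had 0 counts in each p53-driven tumor and 5, 1, 7, 0 and 1 in M351, M408, M9, M624 and M664.

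Itga4 (ENSMUSG00000027009, chromosome 2 from 79255426 to 79333123, plus strand), a receptor chain found on many leukocytes, was even among the p53-driven tumors, at 38.0 to 48.8 CPM. The Myc-knockin tumors had 68.9, 26.9, 40.6, 4.99 and 22.4 CPM, so that M351 was above and M408, M624 and M664 below every p53-driven tumor. The log2 fold change of -0.43 (standard error 0.54, adjusted p = 0.644 in edgeR) turned to 0.11 without M624 and M664. Of the Itga4 counts in M9 and M351, 17.4 of 51 and 15.7 of 112 were expected as background. Exons of Cerkl on the opposite strand overlap 8.04% of the exon bases of Itga4, and Cerkl had at most 12 counts in a tumor. Leukocyte markers summed to 602 to 1167 CPM in the p53-driven tumors and 182 to 517 CPM in the Myc-knockin tumors, with 4 of the 12 called lower. Of these markers 6 were called lower with DESeq2 (7.24% of all genes called lower), 5 with limma-voom (6.51%) and 5 without M664 (2.97%). With library size alone (0.560%) or without F187 (1.22%), M351 (1.27%), M624 (1.49%), F325, F331 or F368, 0 were called. The count was 1 without M408 (2.78%) and 2 without M9 (4.34%). The fits without F325, F331 or F368 called at most 0.0498% of all genes. Without the 4 libraries with satellite reads 1 was called lower (12.1% of all genes) and 1, Coro1a, higher (15.7%). The part of leukocytes in the Itga4 values was not tested.

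None of the 4 collagen-binding alpha subunit genes was called, and Itga11 and Itga1 came closest. Itga11 (ENSMUSG00000032243, chromosome 9 from 62677826 to 62783982, plus strand) encodes a receptor chain for fibrillar collagen that is typical of mesenchymal cells. It had 39.5, 121, 65.8 and 104 CPM in F187, F325, F331 and F368, and 19.7, 7.33, 23.1, 17.1 and 49.96 CPM in M351, M408, M9, M624 and M664. The groups overlapped only through M664, which was above F187, and M408 was the lowest. A log2 fold change of -1.81 (standard error 0.50) missed the threshold, with an adjusted p = 0.0584 in edgeR, and the value lay between -2.32 and -1.50 in the other settings. It passed without M664 (-2.30, adjusted p = 0.0313, 2.97% of all genes called lower).

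Itga1 (ENSMUSG00000042284, chromosome 13 from 114953096 to 115101964, minus strand), a receptor chain for collagen IV and collagen I, had 134, 46.0, 101 and 56.2 CPM in the p53-driven tumors and 20.9, 52.4, 43.0, 14.4 and 22.9 CPM in the Myc-knockin tumors. M408 alone of the Myc-knockin tumors was above the lowest p53-driven tumor, F325. Its fitted difference of -1.46 on the log2 scale (standard error 0.44) did not pass (adjusted p = 0.0724 in edgeR). In M9 and M351, 23.1 of 54 and 20.9 of 34 counts on this long transcript were expected as background. The neighboring Itga2 (ENSMUSG00000015533, chromosome 13 from 114833081 to 114932100, minus strand), whose product platelets and epithelia use to bind collagen I, spread more widely within each group. It ranged from 14.1 to 59.9 CPM and from 3.66 to 26.7 CPM, and its log2 fold change of -1.30 (standard error 0.56) did not pass, at an adjusted p = 0.166 in edgeR. Of its counts in M9 and M351, 8.87 of 19 and 8.01 of 12 were expected as background. Platelet markers were near the floor, at summed levels of 5.10 to 9.36 CPM and 3.24 to 30.1 CPM, and 0 of the 2 tested were called by edgeR, DESeq2 or limma-voom or had an unadjusted p under 0.05 in edgeR. Exons of Gm49395 on the same strand overlap 3.68% of the exon bases of Itga1, and Gm49395 had at most 5 counts in a tumor.

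Itga10 (ENSMUSG00000090210, chromosome 3 from 96645584 to 96664519, plus strand), a receptor chain for collagen II known from cartilage, differed more within the Myc-knockin group than between the groups. The p53-driven tumors had 49.4, 57.5, 68.9 and 105 CPM, and the Myc-knockin tumors 40.6, 12.8, 47.0, 2.40 and 116 CPM. M664 was the highest of all 9 tumors and M624 the lowest, although these libraries were alike in Rn7sk. With a standard error of 0.77, the log2 fold change of -0.68 did not pass (adjusted p = 0.604 in edgeR). Cartilage markers summed to 676 to 1684 CPM and 138 to 446 CPM, mostly through Col11a2, and without Col11a2, a choice made after its values were seen, to 73.5 to 154 CPM and 46.4 to 158 CPM. Of the 7 tested, 4 had a log2 fold change below 0 and 3, Sox9, Chad and Comp, above 0. In edgeR 0 of the 7 tested were called and 1 had an unadjusted p under 0.05, while DESeq2 and limma-voom each called 1 lower. Exons of Gm42957 on the same strand overlap 33.5% of the exon bases of Itga10, so reads there are uncertain, and Gm42957 itself had at most 33 counts in a tumor. The log2 ratio of Itga11 to Itga1 differed by -0.46 between the groups (two-sided exact permutation p = 0.635).

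Neither beta subunit gene was called. Itgb1 (ENSMUSG00000025809, chromosome 8 from 128685654 to 128733200, plus strand), the common partner of the collagen receptors and of the Itga5 product, had 661, 495, 646 and 547 CPM in the p53-driven tumors and 318, 582, 348, 353 and 452 CPM in the Myc-knockin tumors. M408 lay within the p53-driven range, and the other 4 Myc-knockin tumors were under it. The log2 difference between the groups was -0.52 (standard error 0.31 and adjusted p = 0.313 in edgeR). Itgb5 (ENSMUSG00000022817, chromosome 16 from 33829665 to 33949338, plus strand), which pairs with the Itgav product, had 142, 121, 175 and 174 CPM and then 105, 87.4, 78.9, 57.2 and 140 CPM. Only M664 reached the p53-driven range, above F325. For Itgb5 a log2 fold change of -0.71 was fitted (standard error 0.30, with adjusted p = 0.154 in edgeR). The log2 ratio of Itgb5 to Itgb1 was -1.74 ± 0.24 (SD, n = 4) and -1.96 ± 0.52 (SD, n = 5), a difference of -0.21 that was smaller than the SD of either group (exact permutation p = 0.476, two-sided).

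**Figure D2:**
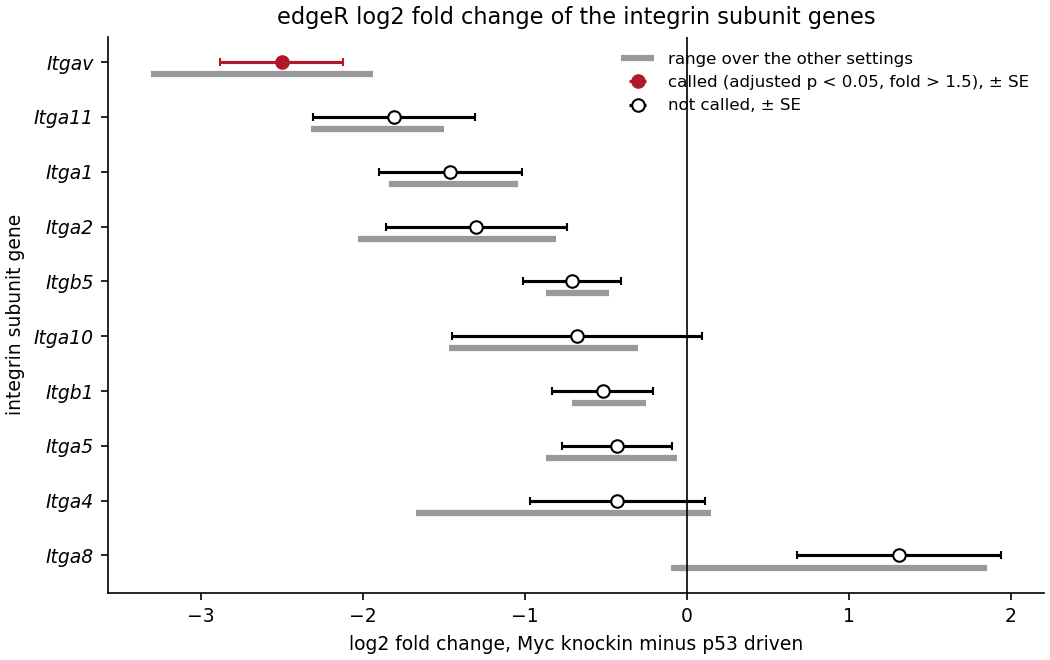
Log2 fold change of each integrin subunit gene, Myc-knockin minus p53-driven tumors, from edgeR with its standard error as whiskers, and in gray the range over the other settings. Itgav at -2.50 is filled as the gene called, 8 further genes lie below 0 without a call, and Itga8 at 1.31 has a gray range that reaches -0.10.

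Per kilobase of exon, the level of one subunit can be set beside that of another, within limits. Background reads were not subtracted from these levels, and Gm42957 shares 33.5% of the exon bases of Itga10. In the p53-driven tumors Itgav led the alpha subunits at 54.7 ± 13.9 CPM per kb (n = 4). Itga11 (16.1 ± 7.19), Itga10 (13.5 ± 4.72) and Itga5 (12.8 ± 1.49) followed at levels that did not differ beyond their spread. Itga1 (4.52 ± 2.19), Itga2 (4.48 ± 2.76) and Itga4 (3.10 ± 0.38) formed the next group, and Itga8 was the lowest at 0.399 ± 0.197. In the Myc-knockin tumors the group means lay closer together, with Itgav at 9.66 ± 3.85 CPM per kb (SD, n = 5), Itga5 at 9.41 ± 4.00 and Itga10 at 8.43 ± 8.54. Itgav ranked first among the 8 alpha subunits in all 4 p53-driven tumors and in M351, M408 and M9, 3 of the 5 Myc-knockin tumors. It stood behind Itga5 in M624 and behind Itga10, Itga5 and Itga11 in M664, the libraries apart by Rn7sk. The beta subunit genes were at 144 ± 19.6 (Itgb1) and 43.1 ± 7.36 CPM per kb (Itgb5) in the p53-driven tumors and at 101 ± 26.6 and 26.4 ± 8.74 in the Myc-knockin tumors.

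**Figure D3:**
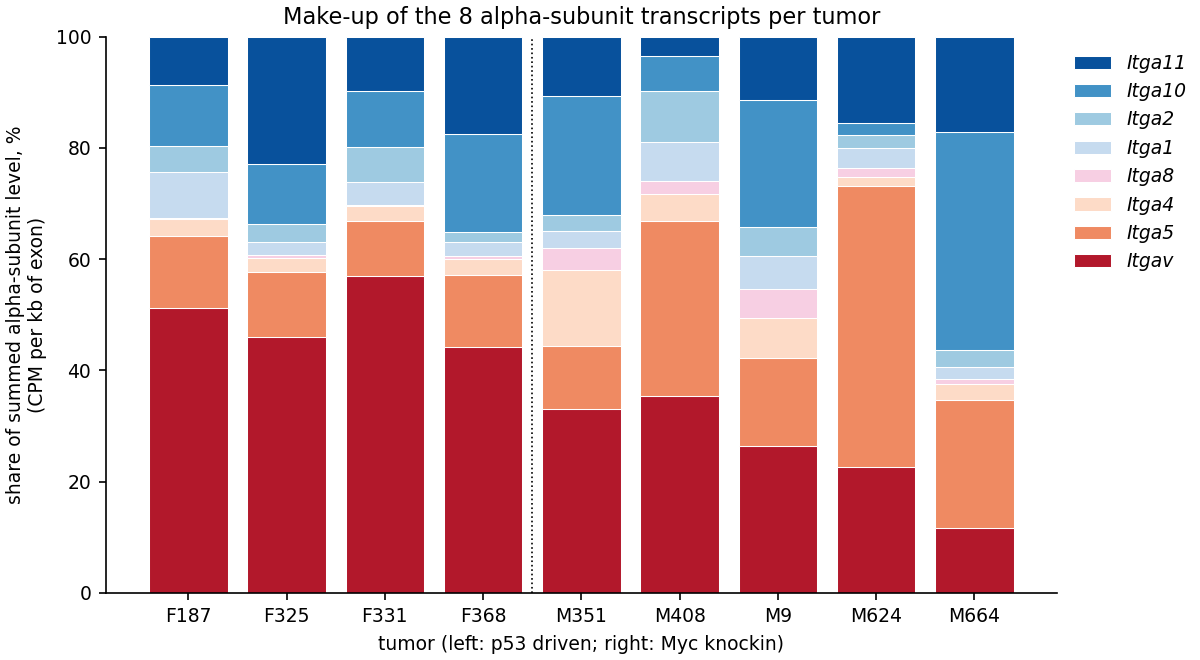
Share (percent) of each alpha subunit gene in the summed level of the 8 alpha subunit genes, in CPM per kilobase of exon, for each tumor, with p53-driven tumors to the left of the dotted line. Reds and pinks stand for Itgav, Itga5, Itga4 and Itga8, and blues for the collagen-binding subunits. Itgav takes 44.3% to 56.9% in the p53-driven tumors and 11.7% to 35.5% in the Myc-knockin tumors.

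As a share of the 8 alpha subunit transcripts per kilobase, Itgav made up 49.6% ± 5.67 (SD) of the p53-driven and 25.9% ± 9.43 of the Myc-knockin total, and the groups did not overlap. Itga5 averaged 11.8% ± 1.36 and 26.4% ± 15.4, with its highest share, 50.5%, in M624. The 4 collagen-binding subunits together held 35.4% ± 4.70 and 38.9% ± 15.4. Itga10 alone made up 39.2% in M664 and 2.15% in M624. The summed level of the alpha subunits was 109.6 ± 18.6 and 38.9 ± 12.6 CPM per kb, without overlap between the groups. With Itgav left out of the sum, the levels were 55.0 ± 8.82 and 29.3 ± 12.6 CPM per kb, and M664 at 50.2 was above F187 at 43.0. Relative to its beta partners, Itgav was at 0.381 of Itgb1 and 1.27 of Itgb5 per kilobase in the p53-driven tumors, and at 0.0987 and 0.386 in the Myc-knockin tumors, in each case without overlap. Its ratio to Itgb3 averaged 2.69 and 1.86, and these ranges overlapped.

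The 3 genes whose log2 CPM followed Itgav most closely over the 9 tumors were Abi1 (Pearson r = 0.989), Osbpl8 (r = 0.985) and Xpr1 (r = 0.985). The tumors share their group and library with every gene, so these values describe likeness only. Abi1, a subunit of the WAVE actin-regulatory complex, averaged 115 ± 12.4 CPM (SD, n = 4) and 52.0 ± 11.2 CPM (SD, n = 5). Osbpl8, a lipid transfer protein, averaged 184 ± 48.3 and 56.6 ± 17.7 CPM, and Xpr1, a phosphate exporter, 321 ± 130 and 58.9 ± 14.6 CPM. All 3 were called lower in the Myc-knockin tumors, with log2 fold changes of -1.14, -1.71 and -2.45.

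Genes that act with these receptors were examined in 6 lists of 89 genes, of which 83 were tested. Of these 83, 11 were called lower and 0 higher in edgeR's quasi-likelihood test, and 62 had a log2 fold change below 0. The count of list genes called was 29 with DESeq2, 22 with limma-voom, 1 with library size alone, 17 where each gene had to reach 10 counts in all tumors and 22 without the 4 libraries with satellite reads. All were lower, except that Col9a1 was higher with DESeq2, and that 5 of the 22 without those libraries were higher (Col4a1, Col4a2, Col9a1, Mfge8 and Ilk). Without F325 1 list gene was called, and without F331 or F368 0 were. These 3 fits called 0.0498%, 0.0375% and 0.0292% of all genes tested. The share of all genes called was 17.2% with DESeq2, 10.8% with limma-voom and 0.885% with library size alone. It was 14.2% with 10 counts required in all tumors and 27.9% without the 4 libraries with satellite reads.

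Collagens, the ligands of the Itga1, Itga2, Itga10 and Itga11 products, had 4 of 14 genes called lower, 0 called higher and a median log2 fold change of -1.89. The count was 0 without F325, F331 or F368, fits in which at most 0.0498% of all genes were called. Without the 4 libraries with satellite reads, where 27.9% of all genes were called, 2 were called lower and 3 higher. Those called were Col12a1 (1134 ± 249 and 234 ± 62.1 CPM, log2 fold change -2.28), Col5a1 (1684 ± 276 and 357 ± 170 CPM, -2.24), Col13a1 (85.3 ± 23.0 and 16.9 ± 12.7 CPM, -2.32) and Col6a1 (874 ± 465 and 238 ± 89.6 CPM, -1.88). Col1a1 and Col1a2, the chains of collagen I and the most abundant transcripts of the list, had wider spreads. Col1a1 was at 40517 to 89709 CPM in the p53-driven tumors and 2098 to 20368 CPM in the Myc-knockin tumors, a fitted level 7.98-fold lower (adjusted p = 0.0682 in edgeR). Col1a2 had a log2 fold change of -2.87 (adjusted p = 0.0817). Both were separate between the groups without passing the test.

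The ligands of the other receptors had 2 of 12 tested genes called lower, 0 called higher and a median log2 fold change of -1.26. Fn1, the gene of fibronectin, was at 3686, 2733, 6099 and 9898 CPM in the p53-driven tumors and at 925, 1883, 928, 622 and 1054 CPM in the Myc-knockin tumors. The groups did not overlap, and the log2 fold change was -2.37 (adjusted p = 0.038 in edgeR). Postn, the gene of periostin, a matrix protein of periosteum, had 551 to 3596 CPM and 68.7 to 230.2 CPM, a log2 fold change of -3.54 (adjusted p = 0.0223). F368 was far above the other p53-driven tumors in Postn. Ibsp, a bone sialoprotein with an RGD motif and the most abundant of this list after Fn1, overlapped between the groups (log2 fold change -0.76, adjusted p = 0.635).

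**Figure D4:**
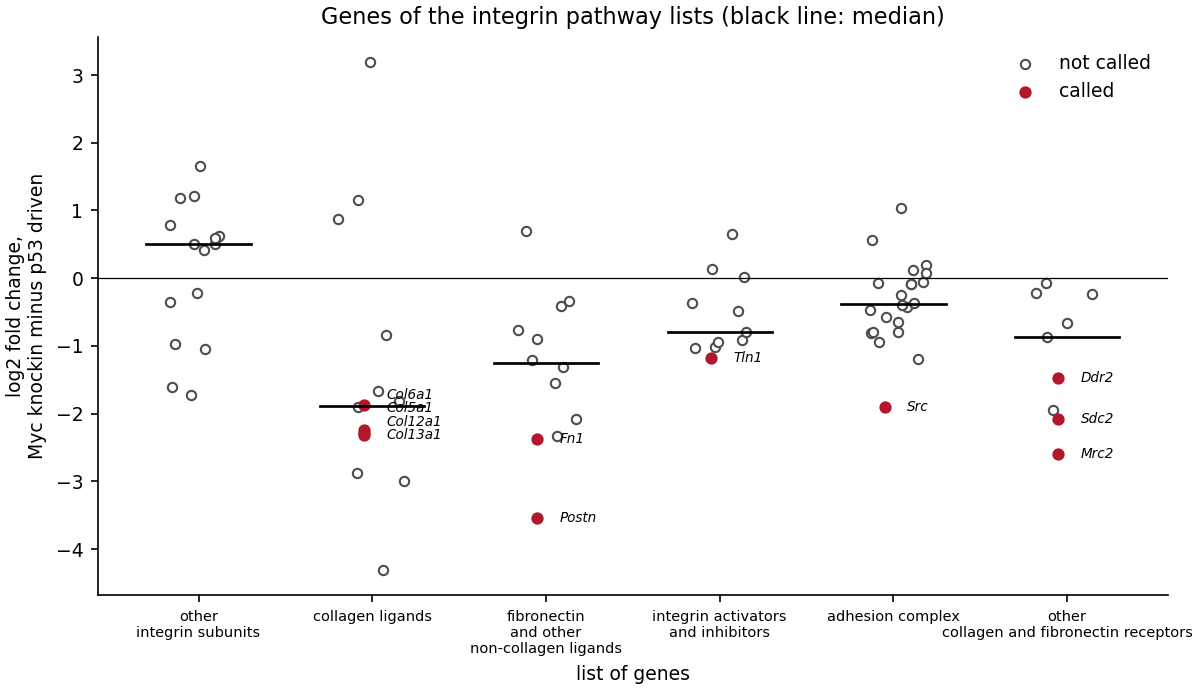
Log2 fold change, Myc-knockin minus p53-driven tumors, of the 83 tested genes in 6 lists of genes that act with integrins. Each circle is a gene, filled red and named where called, and the black line is the list's median. All 11 genes called lie below 0, and the list of other integrin subunits has a median of 0.50 with none called.

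Integrin activators and inhibitors had 1 of 11 tested genes called lower, 0 higher, and a median of -0.80. This was Tln1, whose product talin joins the beta chain to actin, at 469 to 497 CPM in the p53-driven tumors and 161 to 236 CPM in the Myc-knockin tumors (log2 fold change -1.18, adjusted p = 0.0342 in edgeR). The values of each group lay close together compared with the distance between the groups. Flna, a filamin that binds beta chains, was at 816 ± 71.6 and 425 ± 70.6 CPM with a log2 fold change of -0.94 (adjusted p = 0.0797). In the adhesion complex, 1 of 22 tested genes was called lower and 0 higher, with a median of -0.38. The gene called was Src, a tyrosine kinase of adhesion sites, at 55.3 to 98.5 CPM and 12.3 to 29.5 CPM (log2 fold change -1.90, adjusted p = 0.0188). Tns3, a tensin, had -1.20 (adjusted p = 0.0773) and Actn4, an actinin, 0.19 (adjusted p = 0.758).

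Collagen and fibronectin receptors outside the integrin family had 3 of 9 tested genes called lower, 0 higher, and a median of -0.87. Mrc2, an endocytic collagen receptor, was at 431 to 718 CPM in the p53-driven tumors and 59.8 to 135 CPM in the Myc-knockin tumors, with a log2 fold change of -2.60 (adjusted p = 0.0137 in edgeR). Sdc2, a syndecan, was at 252 to 410.4 CPM and 40.3 to 133 CPM (-2.08, adjusted p = 0.0217), and Ddr2, a collagen-activated tyrosine kinase, at 281 ± 64.5 CPM and 102 ± 29.2 CPM (-1.47, adjusted p = 0.0316). All 3 were separate between the groups. Sdc3, another syndecan and the most abundant gene of this list, had -1.95 (adjusted p = 0.0684).

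The 16 other integrin subunit genes, of which 15 were tested, had a median log2 fold change of 0.50, and 0 were called in edgeR, where 3 had an unadjusted p under 0.05. DESeq2 called 2 of them lower (7.24% of all genes called lower) and limma-voom 0 (6.51%). In edgeR 2 were called lower without the 4 libraries with satellite reads (12.1%). The count was 1 with 10 counts required in all tumors (5.72%), without M408 (2.78%) or without M664 (2.97%). Itgb3, another beta partner of the Itgav product, had 117, 109, 257 and 72.0 CPM in F187, F325, F331 and F368, and 48.0, 61.0, 23.1, 9.03 and 67.4 CPM in M351, M408, M9, M624 and M664. The groups did not overlap, but M664 came close to F368. Itgb3 had a log2 fold change of -1.73 (standard error 0.55 and adjusted p = 0.0826 in edgeR). Itgb6 and Itgb8, further beta partners of the Itgav product, had few reads. Itgb6 was at 3.24 ± 2.36 and 4.94 ± 5.69 CPM (log2 fold change 0.50, adjusted p = 0.857), and Itgb8 at 6.77 ± 2.82 and 10.8 ± 10.4 CPM (0.59, adjusted p = 0.63). Itga6, a laminin receptor chain, was at 58.9 to 88.3 CPM and 25.3 to 347 CPM (log2 fold change 0.63, adjusted p = 0.584), with M408 as the highest.

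Markers of osteoclasts, which carry Itgav and Itgb3 proteins, were lower in the same tumors as Itgav. These markers were added with earlier results of these data known, so their counts are description only. Of the 9 markers 7 were called lower and 0 higher, against 3.00% and 2.26% of all genes. The median log2 fold change of the markers was -3.81. The count was 1 without F325, F331 or F368, fits in which at most 0.0498% of all genes were called. It was 4 without F187 (1.22% of all genes called lower), without M351 (1.27%) or without all 4 libraries with satellite reads (12.1%). It was 5 with library size alone (0.560%) or without M624 (1.49%). With limma-voom (6.51%) it was 6, and with DESeq2 (7.24%) or without M664 (2.97%) it was 9. Their summed level was 7302, 5286, 14269.8 and 2775 CPM in F187, F325, F331 and F368, and 372, 278, 158, 315 and 2609 CPM in M351, M408, M9, M624 and M664. F331 was the highest in both the sum and Itgav, but the order of the other tumors differed within each group. F187 was second in the sum and the lowest p53-driven tumor in Itgav, at 484 CPM. Of the Myc-knockin tumors, M664 had the highest sum with 71.3 CPM of Itgav, and M408 had the highest Itgav, at 153 CPM. Mmp9, which myeloid cells also express, made up most of the sum in M664 (1628 CPM), M408 (177 CPM) and F187 (3826 CPM). In M624 it was about level with the other markers together (159 against 157 CPM). With Mmp9 left out, a choice made after its values were seen, the sums were 1566 to 8761 CPM and 101 to 982 CPM, with F368 the lowest of the first group and M664 the highest of the second. Macrophage markers summed to 712 to 1202 CPM and 267 to 894 CPM, fibroblast markers to 508 to 888 CPM and 80.6 to 344 CPM, and endothelial markers to 446 to 546 CPM and 146 to 621 CPM. Smooth muscle markers summed to 511 to 701 CPM and 307 to 555 CPM, and skeletal muscle markers to 25.7 to 5257 CPM and 11.8 to 2172 CPM. In edgeR 2 of 8 macrophage markers and 1 of 5 tested fibroblast markers were called lower. None of the 10 endothelial, 8 tested smooth muscle and 9 skeletal muscle markers was called in edgeR, where 1, 2 and 0 had an unadjusted p under 0.05, or by DESeq2, while limma-voom called 2 smooth muscle markers lower. The part of any of these cell types in the Itgav difference was not tested.

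**Figure D5:**
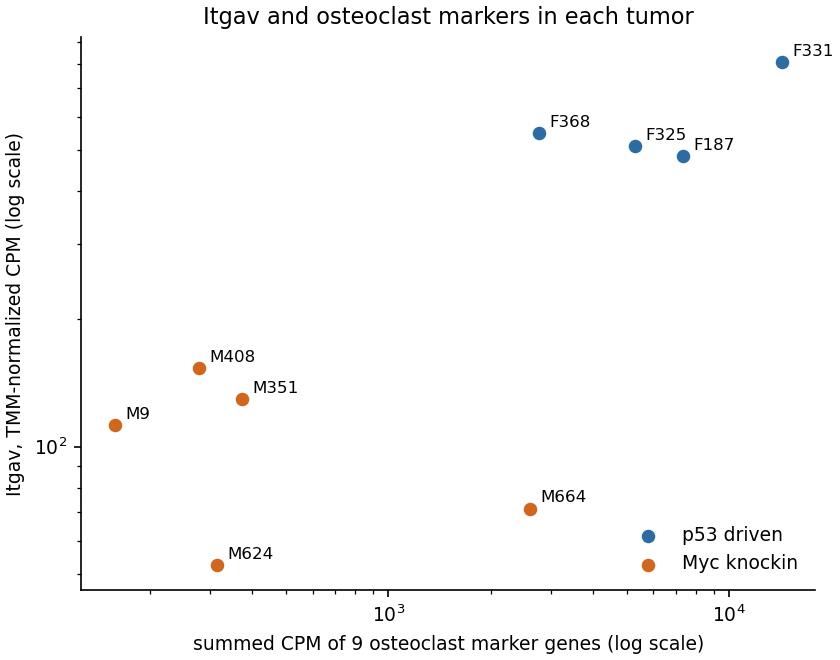
Itgav (TMM-normalized CPM, vertical axis) against the summed CPM of 9 osteoclast marker genes (horizontal axis) in each tumor, both on log scales, with p53-driven tumors in blue and Myc-knockin tumors in orange. The p53-driven tumors lie at 2775 to 14269.8 CPM on the horizontal and 484 to 807 CPM on the vertical axis. The Myc-knockin tumors lie at 158 to 2609 and 52.5 to 153 CPM. Mmp9 makes up most of the sum of F187, M408 and M664.

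Counts of the 10 integrin genes called, all of them lower, changed with the test and the libraries. DESeq2 called Itgav, Itga11 and Itga1. Itgav and Itga11 were called by limma-voom, and by edgeR with genes required to reach 10 counts in all tumors (5.72% of all genes called lower), without M624 and M664 (2.81%), and without them and with the background subtracted (2.90%). Itgav and Itga1 were called without the 4 libraries with satellite reads (12.1%). At an adjusted p under 0.1 in the first edgeR fit, Itgav, Itga11 and Itga1 passed, with 6.81% of all genes lower.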

How the data were processed

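RNA-Seq was performed on resected tumors of 4 p53-driven and 5 Myc-knockin GEMMs, with oligo-dT enrichment and a stranded kit per the paper's methods. The authors used Trim Galore for trimming, STAR for mapping to mm10 and featureCounts for counting, per the labels, and deposited raw counts of reads for each gene. Versions of STAR and featureCounts, the strand setting and the handling of reads mapping to several places are not given in the sources used here.

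The column names were matched to groups only. Supporting values of the study list 6 of the names under the cell lines of a genotype, and for M351, M9 and M664 the letter M gave the group. Each column is a separate tumor, and p-values measure the spread between these tumors.

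Counts were tested in R 4.3.3 with edgeR 4.0.16 (TMM, filterByExpr with a minimum count of 10, glmQLFit and glmQLFTest) and adjusted by the Benjamini-Hochberg method over 15365 genes. Calls required an adjusted p under 0.05 plus a change of over 1.5-fold. The 3 ratios used two-sided exact permutation tests over 126 arrangements. Levels per kilobase used the exon length of the GENCODE annotation. Background was estimated per library from 1824 chemosensory receptor genes per kilobase of exon. Floors cover counting error only.

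Alternatives were DESeq2 1.42.0, limma-voom (limma 3.58.1) with quality weights, upper-quartile and library-size scaling, other low-count filters, other thresholds, removal of 12 satellite genes, background subtraction, other counts added to ratios, and libraries left out. Leaving out M624 and M664 together with background subtraction, and leaving out M9 and M351, were chosen after seeing the data. The genes and lists, and the libraries left out, were chosen with earlier results of these data known, and the osteoclast markers were added for the same reason. Named are all 10 integrin genes, of each pathway list the genes called and the 2 of highest mean CPM, the 3 genes most like Itgav, and Myc and Trp53. Itgb3, Itgb6 and Itgb8, genes called only in another setting, the marker genes and overlapping genes are given beside the results they touch.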

Additional observations from a re-analysis of the deposited data

How the results depend on the processing

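The number of the 10 integrin genes called, 1 in the edgeR comparison, was 3 with DESeq2 and at an adjusted p under 0.1, and 0 with library size alone. It was 2 with limma-voom, with 10 counts required in all tumors, without M624 and M664 (also with the background subtracted), and without F187, M351, M408 and M9. Leaving out each tumor in turn gave 0 to 2, with 0 without F325, F331 or F368 and 2 without M664. Without F325, F331 or F368 at most 0.0498% of all genes were called. The share was 2.03% without F187, 2.44% without M351, 4.87% without M664 and 10.4% without M9. The 11 pathway genes called became 29 with DESeq2 (28 lower, 1 higher), 22 with limma-voom, 1 with library size alone, 17 with 10 counts required in all tumors and 22 without F187, M351, M408 and M9 (17 lower, 5 higher), and 0 to 13 with each tumor left out in turn, with 0 without F331 or F368, 1 without F325, and 6 without F187 or M351. The direction of Itga4 reversed to 0.11 without M624 and M664 (0.15 with the background also subtracted), and that of Itga8 to -0.10 without the 4 libraries with satellite reads. The difference in the log2 ratio of Itga11 to Itga1 reversed to 0.13 without those 4 libraries and was -1.04 to 0.12 with each tumor left out in turn, above 0 without F325 (0.01) or M408 (0.12). The difference in the log2 ratio of Itgav to Itga5 was -1.26 (exact permutation p = 0.0571) without M624 and M664 and -3.16 (p = 0.2) without the 4 libraries, each p the smallest possible there, and -2.38 to -1.71 with each tumor left out in turn. For Itgb5 to Itgb1 it was -0.35 to -0.07. The causes were not tested. Of all calls, 43.0% were higher in the Myc-knockin tumors, 64.5% with upper-quartile scaling, 58.0% with DESeq2, 59.7% with 10 counts required in all tumors and 58.5% with the background subtracted. Scaling by library size alone moved the median log2 fold change of all genes by -0.12, and limma-voom by -0.18. No paired analysis was possible because the columns of the count table carry no replicate numbers. The sources used here also describe no pairing of tumors between the groups, so the groups were compared as separate tumors. Depth limits Itga8 most, with 3 to 93 counts per tumor.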
